A study of Mus musculus with 577 samples.

Results

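Cholesterol synthesis, its sterol-sensing control and intracellular cholesterol handling were examined through 28 genes, matched by symbol to 1 row each among the 22060 protein-coding genes counted in every expression library. The study applied DRaqL, a direct lysis of cells cut from ovary sections by laser capture microdissection (LCM), and sequenced mRNA from single oocytes, single granulosa cells, granulosa cell pools and mouse embryonic stem cells (mESCs), 577 libraries in all. The ovaries came from female mice 8 weeks old, and the labels give no genotype or strain and tie no library to a named animal. By the study's account, the amplification methods for ovary sections were run on one ovary, and the same-mouse cells came from both ovaries of 1 proestrus mouse. Secondary-to-early antral and primary follicles supplied the oocytes. Granulosa cells were either neighboring the oocyte or non-neighboring. DRaqL-SC3-seq, which counts transcript 3′ ends, profiled 30 secondary-to-early antral oocytes, 14 primary oocytes, 31 neighboring and 26 non-neighboring granulosa cells from alcohol-fixed sections. The SMART-Seq v4 3′ DE kit was used on alcohol-fixed sections without DRaqL (11, 7, 17 and 17 libraries of the same 4 classes) and with DRaqL (9, 6, 20 and 19). A formalin set, fixed for 24 h and lysed by DRaqL with protease digestion before Smart-seq2, held 7, 5, 12 and 12. Single granulosa cells were also compared between LCM-seq, a lysis in the mild detergent Triton X-100 (17 neighboring and 20 non-neighboring), and DRaqL-Smart-seq2 (15 and 19). In the same-mouse experiment, 8 oocytes and 70 granulosa cells (35 of each position) were taken by LCM, and 14 grown oocytes and 35 granulosa cells were freshly dissociated in the presence of a cAMP analog, 14 of the latter attached to oocytes and 21 not. Larger inputs were 7 bulk granulosa cell samples, 7 neighboring and 7 non-neighboring pools of 10 granulosa cells, and 2 serial sections from each of 8 oocytes. The mESCs, grown with LIF (1 U/µL), CHIR99021 (3 µM) and PD0325901 (0.4 µM), gave 45 fresh and 36 LCM libraries. Libraries for splice junctions were labeled as 5 secondary-to-early antral oocytes, 5 fresh mESCs and 5 LCM mESCs.

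Cholesterol is built from acetyl-CoA through the mevalonate pathway to squalene, which is cyclized to lanosterol and then trimmed and rearranged to cholesterol. Synthesis is governed by SREBP transcription factors, held in the endoplasmic reticulum by SCAP and INSIG proteins when sterols are plentiful and released to the Golgi and nucleus when they are scarce. Mouse oocytes are known to depend on their companion granulosa cells for much of their cholesterol, so the levels in both cell types are of interest. The 28 genes were grouped by role: 7 of the mevalonate pathway, 3 from squalene to lanosterol, 9 after lanosterol, 5 of SREBP control and 4 of transport.

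Levels are given as log2(RPM + 1), where RPM is a gene's reads per 1000000 reads of protein-coding genes, with the mean ± SD over cells. The labels tie no cell to a named animal, so cells of one class count as 1 sample and their differences carry no test. Protocols run on the same ovary or mouse repeat the chemistry and not the animal, so a count over protocols is no count of independent replicates. A difference of at least 1 on the log2 scale was the size used for naming. Only the pools of 10 cells were tested. Fewer cells and less RNA per cell cannot be told apart in pooled libraries, and RPM is relative to each library's own total.

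Depth ranged from 12748 to 17506401 reads of protein-coding genes. In SC3-seq the markers followed the labels by their medians. Over 14 oocyte markers, the summed level was 18078 to 45666 RPM in secondary-to-early antral oocytes and 3720 to 21876 RPM in primary oocytes. Primary oocytes overlapped granulosa cells, where these markers reached 17299 RPM in neighboring and 14355 RPM in non-neighboring cells. Over 10 granulosa markers the neighboring and non-neighboring cells had medians of 7376 and 7800 RPM. Some granulosa cells carried oocyte RNA: 13 of 31 neighboring and 3 of 26 non-neighboring SC3-seq cells reached 10% of the oocyte median. The study had already set apart 3 other cells with profiles mixed with those of oocytes. It describes oocyte genes in the kept neighboring cells as gene-specific and not as such mixing. Among the 14 primary SC3-seq oocytes, 5 pairs of libraries were near-identical in their deviations (r of 0.782 to 0.95 across genes), leaving 9 distinct profiles. In fresh mESCs 1 such pair was found (r of 0.873). A pair of non-neighboring granulosa cells passed the same rule but was less alike (r of 0.655). In each of these pairs the library numbers lay 8 apart, and the source of the likeness was not tested. Bulk granulosa sample 2 stood apart, with 12190 genes detected against 14313 to 16492 in the other 6.

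Promoters are shown first, because SREBP acts at a sterol regulatory element and works with NF-Y, which binds CCAAT boxes. RefSeq windows (GRCm38.p6, 250 bases before to 50 after the gene start) were matched for 23 of the 28 genes. The 5 printed here are the genes whose levels the comparisons turn on and for which a window was matched: Hmgcs1, Insig1 and Lbr, higher in oocytes, and Mvk and Abca1, higher by summed reads in granulosa cells in all or most protocols. Capitals mark matches on either strand to TCACNCCAC, CCAAT or CACGTG, motifs that do not overlap one another here.
Hmgcs1, chr13:119690101-119690400, + strand: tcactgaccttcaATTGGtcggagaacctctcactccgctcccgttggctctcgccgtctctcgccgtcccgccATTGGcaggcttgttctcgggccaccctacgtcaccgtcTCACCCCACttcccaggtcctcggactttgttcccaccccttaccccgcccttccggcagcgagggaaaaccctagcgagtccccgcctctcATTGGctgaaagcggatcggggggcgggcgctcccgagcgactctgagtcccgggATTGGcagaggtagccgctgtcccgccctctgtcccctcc
Insig1, chr5:28071162-28071461, + strand: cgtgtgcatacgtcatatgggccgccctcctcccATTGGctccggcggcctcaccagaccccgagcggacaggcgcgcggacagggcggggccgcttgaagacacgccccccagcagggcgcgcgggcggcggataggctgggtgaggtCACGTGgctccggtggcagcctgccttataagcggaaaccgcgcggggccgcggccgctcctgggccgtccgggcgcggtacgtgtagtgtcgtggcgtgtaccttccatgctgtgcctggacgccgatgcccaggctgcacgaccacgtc
Lbr, chr1:181842352-181842651, − strand: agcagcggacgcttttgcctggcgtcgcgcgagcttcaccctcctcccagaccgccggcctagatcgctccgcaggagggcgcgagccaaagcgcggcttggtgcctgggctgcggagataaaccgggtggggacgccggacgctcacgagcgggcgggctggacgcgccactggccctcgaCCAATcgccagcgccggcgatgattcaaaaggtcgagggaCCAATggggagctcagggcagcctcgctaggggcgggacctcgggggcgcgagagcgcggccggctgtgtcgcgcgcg
Mvk, chr5:114444019-114444318, + strand: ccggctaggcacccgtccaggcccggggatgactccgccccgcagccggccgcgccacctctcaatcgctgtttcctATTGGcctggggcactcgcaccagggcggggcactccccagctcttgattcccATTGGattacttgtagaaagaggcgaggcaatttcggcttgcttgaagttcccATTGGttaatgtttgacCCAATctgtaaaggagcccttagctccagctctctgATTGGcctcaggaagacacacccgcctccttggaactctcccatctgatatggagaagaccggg
Abca1, chr4:53159846-53160145, − strand: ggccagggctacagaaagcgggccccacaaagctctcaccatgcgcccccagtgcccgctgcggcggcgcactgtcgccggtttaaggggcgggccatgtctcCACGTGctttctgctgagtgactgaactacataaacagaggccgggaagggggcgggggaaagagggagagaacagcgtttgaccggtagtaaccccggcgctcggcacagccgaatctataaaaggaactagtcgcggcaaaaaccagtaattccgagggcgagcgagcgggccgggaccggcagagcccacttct

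The sterol element TCACNCCAC was found in 1 of the 23 windows, that of Hmgcs1, and in 1.44% of 15900 windows of all genes. CCAAT was present in 20 of 23 (87%) against 42.1% of all windows, with 4 copies in Hmgcs1, 5 in Mvk, 2 in Lbr, 1 in Insig1 and none in Abca1. The other windows without it were those of Acat2 and Scap. CACGTG, an E-box that SREBP can also bind, was present in 6 of 23 (26.1%) against 9.18% of all windows: Hsd17b7, Sc5d, Dhcr7, Scap, Insig1 and Abca1. These matches describe letters in the windows only.

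To compare genes with one another, exon reads per kilobase and per 1000000 exon reads were taken from the libraries made for splice junctions, 5 oocytes and 10 mESCs. By the study's account, reads of such libraries lean toward the 3′ end. Division by the length of all annotated exons can therefore lower long genes, such as Lss (10768 bases) and Abca1 (10363) against Fdft1 (2860), and the order is approximate. In these oocytes, Fdft1, which condenses farnesyl diphosphate into squalene, had the highest level of the 28, with a median of 199 and a range over oocytes of 121 to 214. Hmgcs1, which makes HMG-CoA, followed at 47.8 (36 to 69.3), and Lbr, the lamin B receptor with sterol C14-reductase activity, at 43.5 (16.7 to 63.2). Hmgcs1 and Lbr overlapped, and Fdft1 lay above both in every oocyte. Scap was at 26.6 (22.9 to 43.2) and Insig1 at 25.2 (19.6 to 38.8), also overlapping. At the other end were Ebp, a sterol isomerase, with a median of 0.330, mevalonate kinase Mvk with 0.0553, and Abca1, the cholesterol and phospholipid exporter, with a median of 0 and a highest value of 0.420. Genes of the later steps included Sqle, squalene epoxidase, at 1.62, Cyp51, lanosterol 14-demethylase, at 1.29 and Lss, lanosterol synthase, at 0.404.

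The order differed in the mESCs. There Npc2, the lysosomal cholesterol carrier, led at 71.3 (44 to 100.7), Fdft1 was at 22.2 (9.87 to 47.2) and Hmgcs1 at 15.1 (6.02 to 40.0). Sqle was at 13.7, Mvk at 7.67 and Ebp at 6.98. Insig1 was at 0.142 and Abca1 had a median of 0. In the splice-junction table of oocytes, 18 members were listed and 6 had junction reads in all 5 cells, among them Fdft1 (176 to 412 reads) and Scap (209 to 380). Hmgcs1 and Lbr were not listed there although their exons were well covered.

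Secondary-to-early antral oocytes were then compared with granulosa cells. By the mean over cells in DRaqL-SC3-seq, 24 of the 28 genes were higher in oocytes by 1 or more and 0 were lower by 1 or more, where 45.7% of all detected genes were higher and 3.93% lower. The median difference of the 28 was 2.48 against 0.70 for all genes. Among genes with a mean of at least 2, however, 77.3% were higher, and the median was 2.56 for the 23 members at that level, 22 of them higher, against 2.57 for all genes. Fewer members were detected in a single granulosa cell than in an oocyte: a median of 14 in neighboring cells (9 to 20) and 12 in non-neighboring cells (7 to 18), against 27 (25 to 28) in secondary-to-early antral oocytes and 24.5 (19 to 28) in primary oocytes. All genes went the same way, with medians of 7313 and 7393 genes detected against 13583 and 13284. Median depth was 585673 and 544072 reads against 1553490 and 1498330. The detection counts therefore do not set the members apart from all genes. The summed level of the 28 overlapped between classes, with medians of 1500 RPM (399 to 4109) and 1329 (104.5 to 4110) in the granulosa classes and 2861 (2051 to 3367) in the oocytes.

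Because zeros weigh on a mean of logs, counts were also summed over cells, and 1 RPM was added to each sum before the log2 ratio, which understates the ratios of low genes. By summed counts, 8 members were higher in oocytes by 1 or more (background 21.1%) and 7 lower (22.9%), with a median of 0.39. The larger count of higher members thus held for the mean over cells and not for the summed counts. Of the 24, 7 had a summed ratio below 0: Pmvk, Sqle, Lss, Cyp51, Srebf1, Insig2 and Npc2. In turn, 5 genes were higher by both measures in each of the 6 protocols with both cell types, where 11% of all genes were higher by summed counts in all 6: Hmgcs1, Fdft1, Lbr, Insig1 and Npc1.

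Hmgcs1 was at 8.18 ± 0.52 in oocytes (lowest 6.89, median 8.25, highest 8.91). In neighboring granulosa cells it was at 2.92 ± 2.69 (0, 2.74 and 8.09) and in non-neighboring cells at 2.23 ± 2.58 (0, 1.75 and 8.51). Most granulosa cells lay below the lowest oocyte, but the highest reached into the oocyte range, and 61.4% of granulosa cells had any Hmgcs1 read. The summed counts gave 307 RPM in oocytes (exact 95% Poisson interval 302 to 312) against 29.6 (27.2 to 32.1) in neighboring and 24.0 (21.5 to 26.7) in non-neighboring cells, intervals that cover counting error only. The difference of means was 5.58 in SC3-seq and 3.99 to 5.45 in the other protocols, and the log2 ratio of summed counts was 1.93 to 3.45.

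Fdft1 was detected in 91.2% of granulosa cells. Its level was 9.64 ± 0.25 in oocytes (9.24, 9.64 and 10.10), the narrowest spread of the 28 in this class. In granulosa cells it spread from 0 to 10.15 (median 6.43) next to the oocyte and from 0 to 10.89 (median 5.35) away from it. The difference of means was 4.23, and 3.67 to 6.36 in the other protocols. Summed ratios were 1.98 to 3.66.

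Lbr was at 8.24 ± 0.86 in oocytes (6.17, 8.61 and 9.30), 3.50 ± 3.06 in neighboring (0, 3.08 and 8.99) and 2.45 ± 3.33 in non-neighboring cells (0, 0.75 and 10.44). Most granulosa cells were low and a few were as high as oocytes. The summed level was 352 RPM (346 to 357) in oocytes, 67.3 (63.7 to 71.1) in neighboring and 79.5 (74.9 to 84.3) in non-neighboring cells. Insig1, a target of SREBP that retains SCAP in the endoplasmic reticulum, was at 7.97 ± 0.40 in oocytes (7.15, 7.90 and 8.73) against 3.12 ± 2.76 (0, 3.06 and 9.01) and 4.07 ± 3.05 (0, 5.01 and 8.94). Npc1, which moves cholesterol out of lysosomes, was at 7.10 ± 0.40 (5.99, 7.11 and 7.61) against 2.11 ± 2.99 (0, 0 and 8.76) and 1.17 ± 2.19 (0, 0 and 8.63). It had reads in 38.6% of granulosa cells and in every oocyte. The classes overlapped for both genes, as they did for each of the 28 in SC3-seq.

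**Figure D1:**
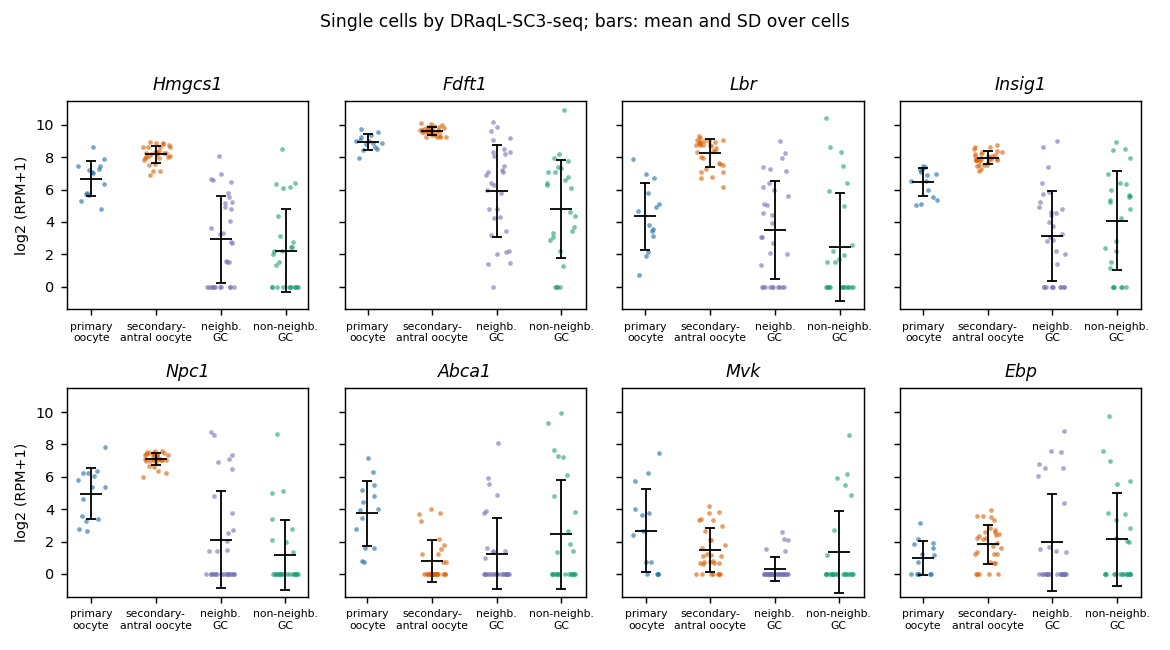
Single-cell levels of 8 genes, log2(RPM + 1) on the vertical axis, in the 4 DRaqL-SC3-seq classes, 1 point per cell with the mean and SD. Hmgcs1, Fdft1, Lbr, Insig1 and Npc1 sit high and tight in secondary-to-early antral oocytes and scatter from 0 in granulosa cells, while Abca1 averages 0.81 in those oocytes and 3.73 in primary oocytes.

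By role, the mevalonate genes were mixed. Acat2, which makes acetoacetyl-CoA, was at 4.91 ± 0.82 in SC3-seq oocytes (3.09, 4.87 and 6.21) against 2.34 ± 2.55 in neighboring and 2.09 ± 2.36 in non-neighboring cells. Mvd, the decarboxylase, was at 4.62 ± 0.90 (2.83, 4.74 and 6.07) against 1.51 ± 2.54 and 0.64 ± 1.94. Both were more widely scattered in granulosa cells than in oocytes. Their differences were 2.69 and 3.50, but their summed ratios were 0.21 and 0.52, and in dissociated cells the Acat2 difference was −0.71. Idi1, isopentenyl-diphosphate isomerase, was higher by 1.91, with 2.11 to 3.94 in the other protocols. Fdps, farnesyl diphosphate synthase, differed by 0.36, and its summed ratio was negative in each protocol (−0.18 to −3.51).

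After lanosterol, the reductase Tm7sf2 was higher by 3.41, Nsdhl by 3.99 and Hsd17b7 by 4.52. Hsd17b7, a sterol 3-ketoreductase, was nearly absent from granulosa cells (0.24 ± 0.67 and 0.35 ± 1.00 against 4.81 ± 0.70), and its summed ratio was 4.22 in SC3-seq but 0.11 with the v4 kit. Nsdhl, a sterol dehydrogenase, was at 5.98 ± 0.56 (4.96, 6.15 and 7.02) against 2.18 ± 2.91 and 1.76 ± 2.76. Tm7sf2 was at 4.81 ± 1.08 (1.59, 5.05 and 6.18) against 1.62 ± 2.84 and 1.12 ± 2.27. Median granulosa cells of both positions had no Tm7sf2 read. Cyp51 was at 4.31 ± 1.0 against 2.56 ± 3.30 and 1.51 ± 2.49, higher by 2.22 with a summed ratio of −1.29.

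In the control group, Srebf1, which encodes SREBP-1, was at 4.53 ± 0.74 in oocytes (2.91, 4.47 and 6.15) against 2.91 ± 3.14 and 3.71 ± 3.28, higher by 1.26 with a summed ratio of −1.52, and Scap by 2.55 with a ratio of 0.41. Among the transport genes, Stard4, a cytosolic sterol carrier, was at 4.30 ± 1.32 (0, 4.46 and 6.17) against 0.37 ± 1.19 and 1.28 ± 2.42, higher by 3.52 with summed ratios of 0.77 to 2.95 over the protocols, and Npc2, at 7.36 ± 0.54 against 4.82 ± 3.37 and 4.79 ± 3.54, was higher by 2.56 with −0.12.

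Like Fdps, the genes Abca1, Mvk and Ebp had summed ratios below 0 in most protocols. Abca1 was at 0.81 ± 1.31 in oocytes (0, 0 and 4.00), 1.25 ± 2.20 in neighboring cells (0, 0 and 8.12) and 2.44 ± 3.37 in non-neighboring cells (0, 0 and 9.94). The median cell of each class had none, and 40.4% of granulosa cells had reads. The summed level was 1.97 RPM (1.59 to 2.41) in oocytes against 16.4 (14.7 to 18.4) and 95.6 (90.5 to 100.8). Its summed ratio was −2.21 to −5.39 over the 6 protocols, and 10.7% of all genes were lower by 1 or more in all 6. Mvk had summed ratios of −1.51 to −5.61 in 5 protocols and of 1.09 in the formalin set, while by means it differed by 0.70 in SC3-seq and from −3.42 to 1.36 over the 6 protocols. Ebp differed by −0.20 by means in SC3-seq, with a summed ratio of −3.12.

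**Figure D2:**
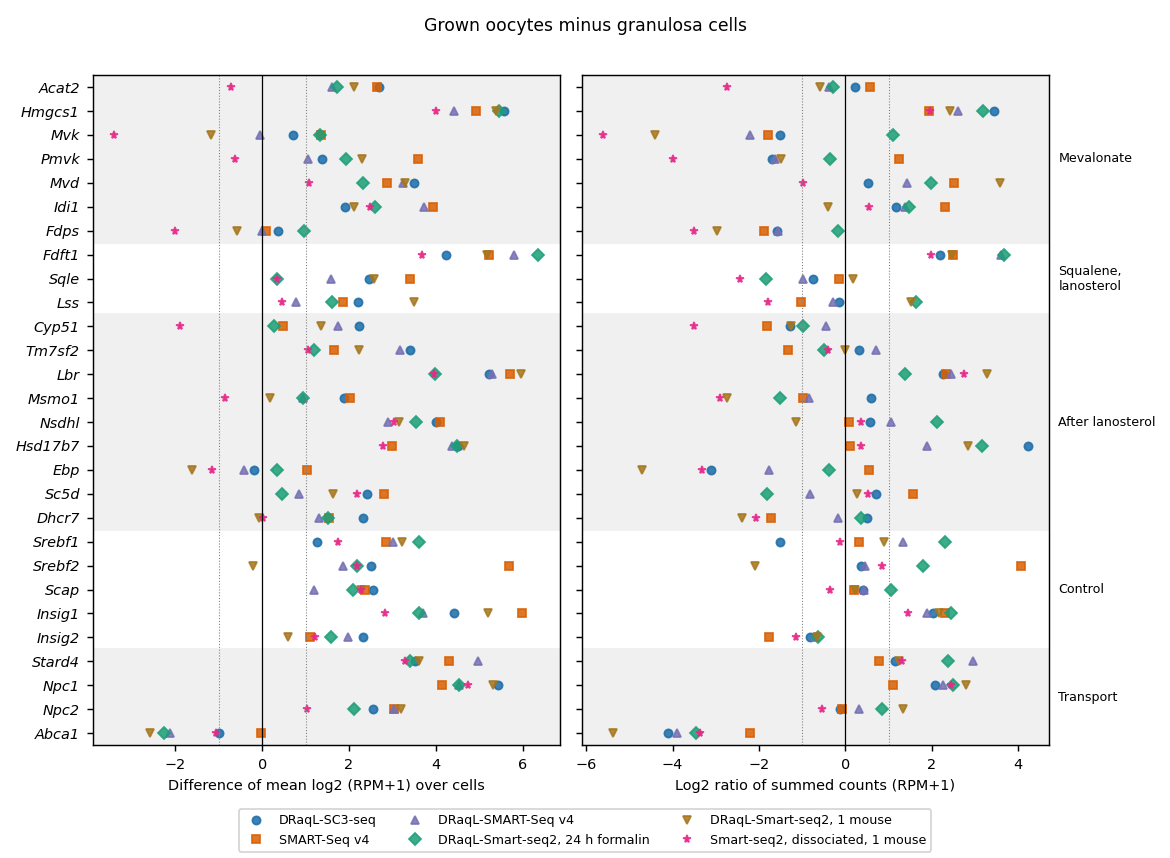
Grown or secondary-to-early antral oocytes minus granulosa cells for the 28 genes, in rows by role, in 6 protocols. The left panel gives the difference of mean log2(RPM + 1) over cells and the right panel the log2 ratio of summed counts, with dotted lines at ±1. Points lean to the right of 0 on the left and straddle 0 on the right, where Hmgcs1, Fdft1, Lbr, Insig1 and Npc1 stay above 1 and Abca1 below −1 in each protocol.

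Other protocols gave like counts by means. Members higher and lower by 1 or more were 25 and 0 with the v4 kit (background 53.2% and 3.75%), 21 and 1 with DRaqL-SMART-Seq v4 (36.9% and 9.74%), 21 and 1 after formalin (38.2% and 8.93%), 20 and 3 in same-mouse LCM cells (41.5% and 7.69%) and 17 and 5 in dissociated cells (45.7% and 12.2%). In all 6 protocols 14 members were higher by 1 or more, against 30.2% of all genes: Hmgcs1, Mvd, Idi1, Fdft1, Tm7sf2, Lbr, Nsdhl, Hsd17b7, Srebf1, Scap, Insig1, Stard4, Npc1 and Npc2. By summed counts in dissociated cells, 6 members were higher (28.8%) and 12 lower (32.5%). Within library pools that held both cell types, the counts were 17 and 5 for same-mouse LCM cells (37.8% and 12.4%) and 18 and 2 for dissociated cells (53.2% and 8.08%). Reads per ERCC spike-in read differed between the cell types, with medians of 135 in oocytes and 2.88 in granulosa cells in DRaqL-SMART-Seq v4 and of 26.3 and 1.13 after formalin. Scaled to spike-in reads, 27 and 28 of the 28 members were higher in oocytes by 1 or more, where 74.1% and 75.5% of all genes were, and the medians were 6.35 and 5.62 against 3.89 and 3.42 for all genes.

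Deeper libraries allowed the comparison without single-cell zeros. Each of 8 oocytes, averaged over its 2 serial sections, was set against the 7 bulk granulosa samples, whose cell number and handling differ from those of the oocytes. There 11 members were higher in oocytes by 1 or more (background 24.2%) and 6 lower (21%), and without bulk sample 2 these were 10 (23%) and 6 (22.5%). Fdft1 was at 9.52 ± 0.13 over oocytes (9.34 to 9.74) and 5.14 ± 2.27 over bulk samples (0.27, 5.48 and 7.0). Lbr was at 8.14 ± 0.33 (7.69 to 8.75) against 3.83 ± 1.30 (1.17 to 4.88), and Hmgcs1 at 7.85 ± 0.35 (7.41 to 8.31) against 4.56 ± 0.93 (3.53 to 5.97). No bulk sample reached the lowest oocyte for these genes, and the share of all genes separated in this way was not counted. The differences were 4.38, 4.31 and 3.29, and 3.56, 3.87 and 3.48 without bulk sample 2. Insig1 (3.05, and 2.54 without that sample), Stard4 (2.99 and 2.67), Npc1 (2.72 and 3.07), Nsdhl (2.15 and 1.56), Hsd17b7 (1.83 and 2.11), Idi1 (1.49 and 1.42) and Srebf1 (1.23 and 1.44) were also higher. Mvd was higher by 1.26, and by 0.81 without it.

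Abca1 was at 0.57 ± 0.59 over the serial-section oocytes (0 to 1.41) against 5.32 ± 1.19 over bulk granulosa samples (4.21 to 7.03), a difference of −4.75. The difference was −2.6 for Mvk, −2.41 for Ebp, −2.13 for Pmvk, phosphomevalonate kinase, −1.18 for Sc5d, a sterol desaturase, and −1.07 for Insig2. Without bulk sample 2, Insig2 was at −0.76 and Tm7sf2 at −1.17. In these deep libraries too, some synthesis genes were higher in oocytes and others in granulosa cells. Against the 14 pools of 10 granulosa cells, 10 members were higher (29.3%) and 6 lower (15.3%), with Npc1 at 4.66, Stard4 at 4.10 and Lbr at 3.94 the largest differences.

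Lists of related lipid genes were counted in the same comparisons. Of 7 fatty acid synthesis genes, 0 were higher and 6 lower in serial-section oocytes than in bulk granulosa cells (background 24.2% and 21%), with Scd2, a stearoyl-CoA desaturase, at −5.41 and Elovl6, a fatty acid elongase, at −4.68. In SC3-seq cells 1 of these 7 was higher and 2 lower (45.7% and 3.93%), with Scd2 at −6.25 and from −3.33 to −7.45 in the other protocols. Of 8 further sterol genes, 5 were higher and 0 lower in SC3-seq oocytes (45.7% and 3.93% of all genes, with 77.3% higher among genes with a mean of at least 2). Abcg1, a sterol exporter related to Abca1 in function, was higher in oocytes by 5.15 and by 4.39 to 5.90 elsewhere.

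Primary oocytes were compared with the same granulosa cells. Members higher and lower by 1 or more were 20 and 1 in SC3-seq (background 40.8% and 2.64%), 22 and 0 with the v4 kit (47.4% and 2.69%), 17 and 1 with DRaqL-SMART-Seq v4 (30.3% and 7.9%) and 21 and 0 after formalin (38.2% and 5.99%). In total 10 were higher in all 4 protocols, against 21.1% of all genes: Hmgcs1, Mvk, Mvd, Fdft1, Sqle, Tm7sf2, Insig1, Npc1, Npc2 and Abca1. By summed counts only Fdft1 was higher by 1 or more in all 4 (5.24%). Averaging the near-identical libraries left the SC3-seq counts at 20 and 1. These comparisons share their granulosa cells with the preceding ones. Abca1 in primary oocytes was above the granulosa mean by 1.94, 3.19, 1.62 and 1.0 in these protocols, with summed ratios of −0.75, 0.08, −0.03 and 0.40.

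Between follicle stages, Lbr, Hsd17b7, Hmgcs1 and Srebf1 were higher and Abca1 lower in later oocytes in each of 4 protocols. In SC3-seq 13 members were higher in secondary-to-early antral than in primary oocytes (background 21.2%) and 2 lower (9.88%), with a median difference of 0.82 against 0.04 for all genes. With each near-identical pair averaged, the counts were 14 and 2. By summed counts 8 were higher (14.5%) and 7 lower (20%). The v4 kit gave 12 and 5 (24.8% and 11.9%), DRaqL-SMART-Seq v4 13 and 7 (26.3% and 16.6%), and the formalin set 7 and 4 (20.9% and 19.0%). By means, 5 genes were higher by 1 or more in all 4 protocols (10.8% of all genes), Hmgcs1, Idi1, Lbr, Hsd17b7 and Srebf1, and 1 was lower (2.96%), Abca1. By summed counts the shared genes were Hmgcs1, Lbr, Hsd17b7, Srebf1 and Stard4 (8.61%) and, lower, Sqle and Abca1 (5.33%).

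Lbr showed the largest of these differences in SC3-seq and DRaqL-SMART-Seq v4. In SC3-seq it was at 4.34 ± 2.05 in 14 primary oocytes (0.73, 4.23 and 7.87) and at 8.24 ± 0.86 in 30 older ones, a difference of 3.91, and the summed level was 44.3 RPM (41.5 to 47.2) against 352. With the v4 kit it was at 4.56 ± 2.43 and 7.99 ± 0.36, and with DRaqL-SMART-Seq v4 at 2.79 ± 3.09 and 7.86 ± 0.32. Primary oocytes were thus scattered and older ones tight in each. After formalin the 5 primary oocytes were at 2.00, 4.17, 4.63, 5.03 and 7.12, and the 7 older ones at 7.50 ± 2.16 (2.65, 8.14 and 8.76), so that the stages overlapped. The 4 differences were 3.91, 3.43, 5.07 and 2.91.

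Hmgcs1 was at 6.68 ± 1.10 in primary SC3-seq oocytes (4.78, 7.05 and 8.61), 1.50 below the older ones, and the stages overlapped. After formalin the primary cells were at 4.86, 5.63, 6.52, 7.22 and 7.60, and the 7 older cells at 7.72 to 8.92. The difference was 1.22 with the v4 kit, 1.84 with DRaqL-SMART-Seq v4 and 1.90 after formalin. Hsd17b7 was at 1.65 ± 1.82 in primary SC3-seq oocytes (0, 0.99 and 5.11), 3.16 below the older ones, with 3.97, 3.47 and 1.81 in the other sets. Srebf1 was at 2.71 ± 1.83 (0, 2.94 and 5.28), 1.82 below, with 2.04, 1.87 and 2.62. Its paralog Srebf2, which mainly drives cholesterol genes, differed by 0.10 in SC3-seq and by 3.75 with the v4 kit. Idi1 differed by 1.23, 1.59, 4.79 and 1.74.

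Transport genes included both directions. Stard4 was higher in the later stage by 2.57, 2.37, 2.53 and 0.98, and Npc1 by 2.13, 1.82, 2.73 and 0.59. Abca1 was at 3.73 ± 2.02 in primary SC3-seq oocytes (0.73, 3.96 and 7.16) and 0.81 ± 1.31 in the older ones, and had reads in every primary cell. Its summed level was 29.2 RPM (26.9 to 31.6) against 1.97. With the v4 kit it was at 5.31 ± 0.43 (4.78 to 5.88) against 2.09 ± 2.17 (0 to 6.45), and with DRaqL-SMART-Seq v4 at 4.24 ± 1.74 (1.65 to 6.34) against 0.51 ± 1.2 (0 to 3.43). After formalin the primary cells were at 3.56, 4.97, 5.70, 6.78 and 7.86 and the older ones at 2.50 ± 1.77 (0.76, 2.39 and 5.75). The stages overlapped in each set, and the differences of means were −2.93, −3.22, −3.73 and −3.27.

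Of the remaining SC3-seq differences past 1, Msmo1, a C4-methyl sterol oxidase, was at 1.75, Dhcr7, the last reductase of one branch, at 1.74, Insig1 at 1.52, Npc2 at 1.46, Cyp51 at 1.29, Nsdhl at 1.03 and Mvk at −1.18. Cyp51 had the opposite sign with the v4 kit (−2.95). Fdft1 differed by 0.71 and Acat2 by −0.53. For Sqle the 4 differences were −0.69, −1.07, −1.17 and −1.37. Outside the 28, Abcg1 was opposite to Abca1, higher in the later stage by 3.12, 3.95, 2.63 and 4.19, and Stard3, a late endosomal sterol transfer protein, was at −1.67, −1.74, −2.06 and −1.50.

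**Figure D3:**
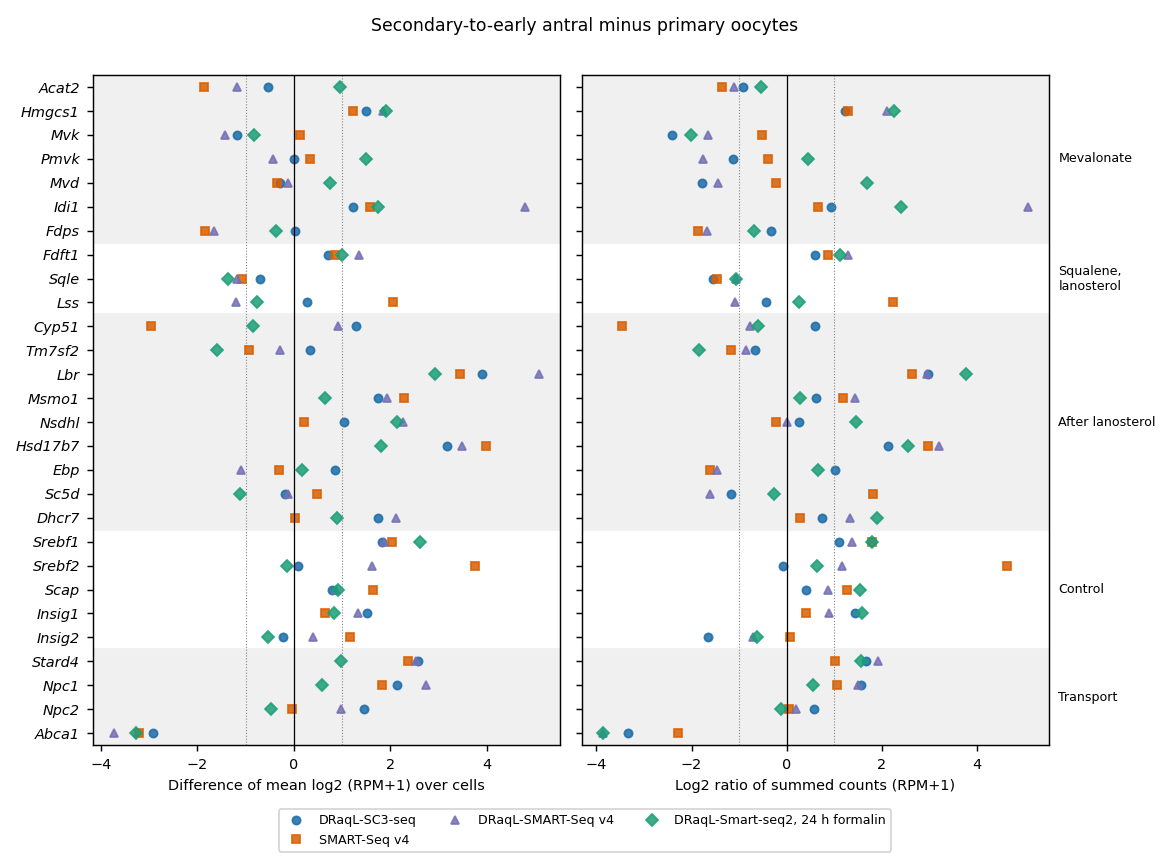
Secondary-to-early antral minus primary oocytes for the 28 genes, in rows by role, in 4 protocols, as the difference of mean log2(RPM + 1) over cells (left) and the log2 ratio of summed counts (right), with dotted lines at ±1. Lbr, Hsd17b7, Hmgcs1 and Srebf1 lie right of 1 and Abca1 left of −1 in every protocol on both panels.

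Granulosa cells next to the oocyte were compared with those away from it. In SC3-seq 4 members were higher in neighboring cells by 1 or more (background 2.84%) and 2 lower (7.54%): Sqle by 1.68, Fdft1 by 1.12, Lbr by 1.05 and Cyp51 by 1.05, with Abca1 at −1.19 and Mvk at −1.03. By summed counts Lbr had the opposite sign. The spreads within each class were larger than these differences, as in Sqle at 3.78 ± 3.63 against 2.1 ± 2.9. Oocyte marker RNA moved with position, with a median of 2943 RPM (0 to 17299) in neighboring and 64.2 (0 to 14355) in non-neighboring cells, as did 5 theca markers, at 3.27 and 89.4, and their part in these differences was not tested. Without the 13 neighboring and 3 non-neighboring cells that carried oocyte RNA, the members lower by 1 or more were 4. With the pair of like non-neighboring libraries (r of 0.655) averaged they were 3.

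No member was higher in neighboring cells in all 8 protocols, and 2, Mvk and Abca1, were lower by any amount in all 8 (2.48% of all genes). The Abca1 differences were −1.19, −0.98, −1.70, −1.15, −0.61, −1.50, −1.86 and −1.28, and those of Mvk lay between −0.02 and −1.57. For Mvk the summed ratio was positive in 2 protocols, DRaqL-Smart-seq2 (0.58) and dissociated cells (0.12). Counts past 1 varied from 8 higher and 1 lower with DRaqL-Smart-seq2 (8.84% and 5.37%) to 1 higher and 12 lower in dissociated cells (3.39% and 33.2%). Between these lay LCM-seq with 6 and 2 (13% and 4.77%), the formalin set with 4 and 5 (14.8% and 8.66%), the v4 kit with 3 and 5 (6.9% and 12.1%), DRaqL-SMART-Seq v4 with 1 and 7 (6.67% and 11%) and same-mouse LCM cells with 2 and 1 (4.64% and 6.71%). In the dissociated cells the relation did not hold within library pools: in the 3 pools that held both classes, 15 members were higher and 0 lower (26.2% and 14.9%).

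The pools of 10 cells gave the replicated test of position, 7 neighboring against 7 non-neighboring, with edgeR's quasi-likelihood test and Benjamini-Hochberg adjustment over all genes. Of the 28 members, 22 passed the filter on low counts and 0 were called at an adjusted p below 0.05, with 0 at an unadjusted p below 0.05. Over all 9704 genes tested, 44 were higher in neighboring pools (0.453%) and 0 lower (0%). DESeq2 also called 0 members, with 3 of 28 at an unadjusted p below 0.05, against 7.92% of all genes. With the pool number as a block, edgeR called 0 members and 3 genes over all, and 5 of 7 pools lay nearest their own number. Mvd, Idi1, Lss, Hsd17b7, Stard4 and Npc1 did not pass the filter. The median log2 fold change of the 22 was 0.12.

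Srebf1 had the largest estimate, 1.74 (SE 0.993, unadjusted p = 0.0947 and adjusted p = 0.998 by edgeR). Its level was 3.41 to 6.79 in neighboring pools (median 4.96) and 0.61 to 5.23 in non-neighboring pools (median 3.76), with overlap. Dhcr7 was at 1.73 (SE 1.43), Cyp51 at −1.55 (SE 1.26), Sc5d at −1.53 (SE 1.17) and Abca1 at −1.11 (SE 1.71). Abca1 had no reads in 4 of 7 neighboring pools, whose highest value was 5.72, and reached 6.51 in non-neighboring pools. Hmgcs1 was at 5.36 ± 1.25 (3.36 to 7.34) and 4.36 ± 1.58 (1.38 to 6.49), an estimate of 0.79 (SE 0.897), Fdft1 at 0.56 (SE 0.692) and Acat2 at 0.07 (SE 1.27). With standard errors of 0.692 to 1.71 for these genes, differences of this size were not detectable at this depth and number of pools. In simulated pools, 7 against 7, the test recovered 4% of changes of 2 on the log2 scale. It recovered 48% of changes of 4, 76% of 6 and 78% of 8, so 0 calls cannot exclude changes of these sizes. Oocyte markers were at 856 to 8865 RPM in neighboring and 2.34 to 151 in non-neighboring pools, and theca markers had medians of 25.3 and 960.

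**Figure D4:**
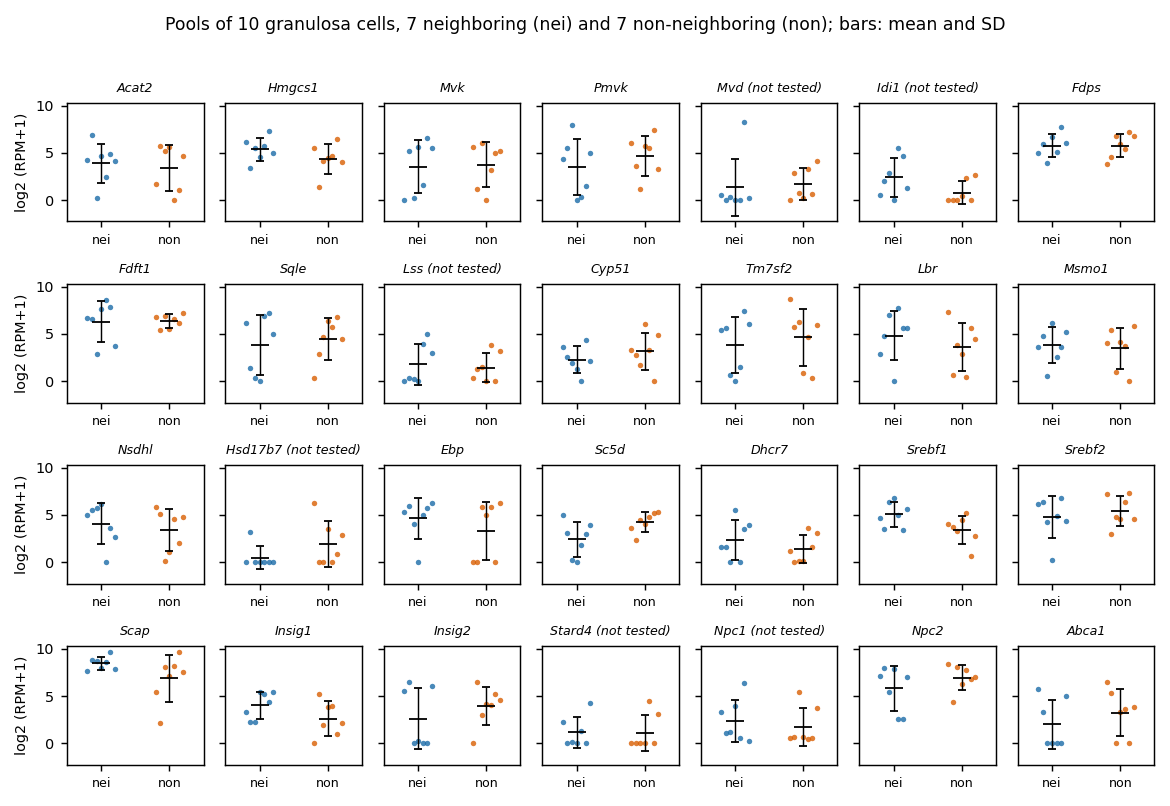
Levels of the 28 genes in pools of 10 granulosa cells, log2(RPM + 1), 1 point per pool with the mean and SD of 7 neighboring and 7 non-neighboring pools. The positions overlap throughout, as for Srebf1 (3.41 to 6.79 against 0.61 to 5.23), and 0 members passed the test.

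In the same-mouse experiment, freshly dissociated granulosa cells held more of these transcripts than LCM cells. Means were higher by 1 or more for 18 members (background 15.4%) and lower for 1 (12.6%), with a median difference of 1.55 against −0.04 for all genes. Summed counts gave 15 higher and 1 lower (17.3% and 28.3%). By role, 6 of 7 mevalonate genes, 2 of 3 from squalene to lanosterol, 6 of 9 after lanosterol, 2 of 5 control genes and 2 of 4 transport genes were higher. The fatty acid list had 2 higher and 1 lower of 7, and the further sterol list 0 of 8 in either direction. In non-neighboring cells alone the counts were 21 and 1 (20.8% and 11.5%), in neighboring cells alone 13 and 2 (10.3% and 18.2%), and without the 7 cells carrying oocyte RNA 19 and 1.

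Msmo1 was at 5.90 ± 3.50 in dissociated neighboring cells (0, 6.25 and 10.56) and 6.43 ± 3.42 in dissociated non-neighboring cells (0, 7.78 and 9.59), against 2.67 ± 3.05 and 3.26 ± 3.13 in LCM cells. Its share of cells with reads was 82.9% against 54.3%, and its summed level 309 RPM against 65.7. Over both positions the difference was 3.26. Sqle was higher by 3.04 (4.38 and 5.13 against 2.26 and 1.31 by position), Fdps by 2.93 and Cyp51 by 2.80. These genes and the ones that follow span the pathway. Fdft1 was higher by 2.29, Mvk by 2.22, Ebp by 2.14, Insig1 by 2.14, Npc2 by 2.04, Mvd by 1.91, Stard4 by 1.90 and Srebf1 by 1.65. Dhcr7, Acat2, Lbr, Idi1, Hmgcs1 and Nsdhl were higher by 1.05 to 1.64. For Lbr and Nsdhl the summed ratios were −0.08 and −0.57. Abca1 was the member lower by 1 or more (−1.79), at 0.40 and 1.68 in dissociated against 2.03 and 3.89 in LCM cells.

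Other measures differed with isolation. Median depth was 87884 and 132194 reads in dissociated neighboring and non-neighboring cells against 233125 and 309128 in LCM cells. Granulosa markers had medians of 12900 and 35202 RPM against 6370 and 5876, and theca markers in non-neighboring cells a median of 3550 (148 to 14406) against 90.5 (0 to 17957). Over 3 blood markers the highest dissociated neighboring and non-neighboring cells had 40111 and 10046 RPM, against 280 and 8.23 in LCM cells. The median was 0 in each of these classes. The dissociated cells came from cumulus-oocyte complexes of a natural estrus cycle and used Smart-seq2 without DRaqL, so isolation, follicle, cAMP analog and chemistry cannot be told apart.

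**Figure D5:**
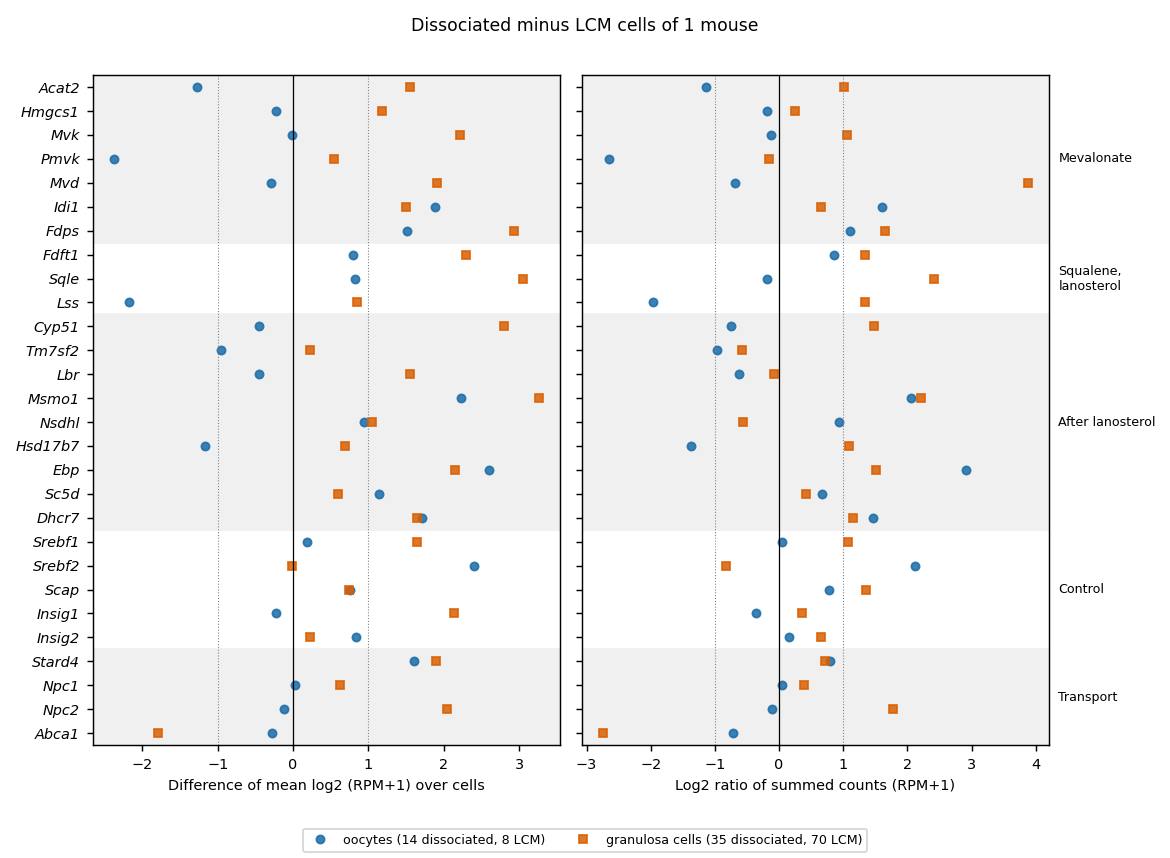
Freshly dissociated minus LCM cells of the same mouse for the 28 genes, in rows by role, for granulosa cells and oocytes, as the difference of mean log2(RPM + 1) (left) and the log2 ratio of summed counts (right), with dotted lines at ±1. Granulosa points lie mostly right of 0, led by Msmo1 at 3.26, with Abca1 at −1.79, and oocyte points lie on both sides.

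Oocytes from the same mouse had members past 1 in both directions, more of them higher than lower. With 14 dissociated and 8 LCM oocytes, 8 members were higher and 4 lower by 1 or more (background 14.2% and 16%), with a median of 0.11 against −0.03. Ebp was at 2.6 ± 1.22 in dissociated oocytes and had no reads in any of the 8 LCM oocytes. Srebf2 was higher by 2.39 (4.30 ± 1.36 against 1.91 ± 1.33) and Msmo1 by 2.23 (5.36 ± 0.45 against 3.13 ± 0.70). Idi1, Dhcr7, Stard4, Fdps and Sc5d were higher by 1.14 to 1.88. Pmvk was at −2.38, Lss at −2.17, Acat2 at −1.27 and Hsd17b7 at −1.17. Hmgcs1 and Insig1, at −0.23 and −0.22, differed little. Whether granulosa cells and oocytes differ in this contrast was not tested.

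In mESCs, LCM cells were set against fresh cells of a cultured line. Msmo1 was the 1 member higher by 1 or more in LCM cells (background 0.442%) and 0 were lower (5.12%), with a median of 0.01 against −0.05. Msmo1 was at 5.84 ± 1.45 in 36 LCM cells and 4.41 ± 1.77 in 45 fresh cells, a difference of 1.43 that was smaller than either cell-to-cell SD. Idi1 was at 3.47 ± 1.38 and 4.46 ± 1.60, a difference of −0.99. A median of 26 members (22 to 28) was detected per fresh cell and 25 (21 to 28) per LCM cell. In fresh and LCM cells Hmgcs1 was at 7.09 and 6.83, Sqle at 7.37 and 7.76, Srebf1 at 6.07 and 6.06 and Mvk at 4.18 and 4.35. Insig1 was low, at 0.97 and 1.10.

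Serial sections of one oocyte set the repeat error. Over the 28 genes, the median absolute difference between the 2 sections of an oocyte was 0.576, against 0.786 between oocytes, and it was smaller within than between oocytes for 22 of 28. For members at a mean of at least 2 this held for 19 of 24 (79.2%), against 7416 of 10716 genes at that level (69.2%).

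Reads within 10000 bases of a gene's 3′ end could enter its counts, by the study's account of its annotation, and most members have another gene that near in GENCODE vM21 on GRCm38. For 11 members that gene is on the same strand, among them Lbr (with Gm23690), Mvd (with Cyba), Fdps (with Rusc1), Tm7sf2 (with Vps51) and Ebp (with Porcn), and their counts may hold reads of those genes. A gene on the opposite strand lies there for 16 members, among them Fdft1 (chr14:63145150-63179578, − strand, with Ctsb), Lbr (chr1:181815335-181843046, − strand, with Dnah14), Hmgcs1 (chr13:119690379-119708260, + strand, with Nim1k), Insig1 (chr5:28071363-28078662, + strand, with Gm26608) and Abca1 (chr4:53030787-53159895, − strand, with Nipsnap3b). The other 7, with neither, are Mvk, Pmvk, Nsdhl, Hsd17b7, Sc5d, Dhcr7 and Npc2.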

How the data were processed

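Libraries were deposited as read counts per gene, which the authors made with the tools listed in their processing notes (cutadapt 1.16, fastp 0.20.0, HISAT2 2.1.0, HTSeq 0.10.0 and featureCounts 2.0.1), on GRCm38 with GENCODE vM21. The deposited exon and junction tables hold read counts of 5 oocytes and 10 mESCs. Counts were taken as deposited, limited to 22060 protein-coding genes, scaled to reads per 1000000 (RPM) and shown as log2(RPM + 1) with a pseudocount of 1, also for ratios of summed counts. Samples were grouped by the labels. The labels tie no library to a named animal, so p-values, given for the pools alone, measure the spread between those samples, which may be technical. Pools were tested with edgeR 4.0.16 (R 4.3.3; TMM, filterByExpr, quasi-likelihood, Benjamini-Hochberg over all tested genes) and with DESeq2 1.42.0 as an alternative. Single cells had no test: means, summed counts with exact Poisson intervals at 0.95 and exact Clopper-Pearson shares were computed with scipy 1.17.1, pandas 2.3.3 and numpy 2.4.6 in Python 3.11.15. The 3 SC3-seq granulosa libraries deposited apart, which the study excluded for mixed profiles, were left out. Scripts were tested on simulated data. The 28 genes, the role lists and the related-gene lists were chosen with earlier results of these data known.

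Genes were named by rule: those past 1 on the log2 scale, at most the 12 largest per comparison, plus Acat2, Fdft1, Cyp51, Srebf1 and Stard4 as the first gene of each role, and at most 3 of each other list. Alternatives were other pseudocounts (0.1 and 10), TMM scaling, summed counts, thinned depth, a mean filter of 2, leaving out cells with oocyte RNA, library pools, ERCC scaling and leaving out replicates. Averaging near-identical libraries, the positions taken alone in the same-mouse comparison, serial sections against bulk samples and pools, and leaving out bulk sample 2 were added after the data had been seen. The replicate numbers of the 7 pool pairs were checked by the correlation of their deviations from the group means. It was 0.00775 to 0.241, above 0.1 in 1 of 7, while 5 of 7 pools lay nearest their own number. Whether the pools are paired is therefore not settled. The main test took them as unpaired, with the number as a block as an alternative.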

Additional observations from a re-analysis of the deposited data

Results flagged for a closer look

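In groups of 7 samples, the highest or lowest sample was set apart when its gap to the nearest other exceeded 0.568 of the range, which chance gives in about 1 of 20 groups. Over 28 genes in 3 groups, 84 cases in all, 14 (16.7%) had such a sample. In 10 of them it was bulk granulosa sample 2, at the low end on the log2(RPM + 1) scale: Acat2 at 0.27 (others 4.03 to 5.39), Mvk at 0 (3.84 to 5.19), Fdft1 at 0.27 (4.97 to 7.0), Tm7sf2 at 2.04 (5.08 to 5.69), Msmo1 at 0.5 (3.87 to 4.80), Nsdhl at 0 (3.73 to 4.61), Dhcr7 at 0 (1.95 to 3.40), Srebf2 at 0.87 (3.55 to 4.68), Scap at 5.27 (7.16 to 8.29) and Insig1 at 0 (2.84 to 4.25). That sample had 4829120 reads, 12190 genes detected and 4250 RPM of granulosa markers, against 7011 to 15357 RPM in the others, and the part of these measures in the low values was not tested.

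The other 4 were neighboring pools of 10 cells. Mvd was at 8.21 in pool 6 (others 0 to 0.57) and Hsd17b7 at 3.22 in pool 2 (others 0), while pool 4 was low for Ebp, at 0 (4.04 to 6.26), and for Srebf2, at 0.23 (4.29 to 6.80).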

How the results depend on the processing

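For the single cells, the choice of pseudocount and of means against summed counts moved the counts most. All genes moved with these choices too, so a changed count does not set the members apart from all genes. Members of SC3-seq oocytes minus granulosa cells were 24 higher and 0 lower by 1 or more with a median of 2.48. With a pseudocount of 0.1 the lower count was 1 and the median 4.44, with 10 the higher count was 13, and TMM scaling, thinned depth and leaving out granulosa cells with oocyte RNA each gave 1 lower. Summed counts gave 8 higher (21.1% of all genes), 7 lower (22.9%) and a median of 0.39. There Pmvk (−1.70), Sqle (−0.75), Lss (−0.15), Cyp51 (−1.29), Srebf1 (−1.52), Insig2 (−0.81) and Npc2 (−0.12) reversed. The median of all genes shifted by 1.05 (pseudocount 0.1), −0.61 (pseudocount 10), −0.15 (TMM), −0.72 (summed) and −0.25 (thinned). In dissociated cells the members' median was −0.48 by summed counts and −0.0927 thinned, and for primary oocytes with the v4 kit it was −0.0534 by summed counts. For the SC3-seq stages, a pseudocount of 10 gave 7 higher and 1 lower and summed counts 8 and 7 (14.5% and 20% of all genes). For SC3-seq position, a pseudocount of 0.1 gave 9 and 6, a pseudocount of 10 gave 1 and 0, summed counts put Lbr at −0.24, leaving out cells with oocyte RNA gave 4 lower, and a mean of at least 2 gave 0 lower. For dissociated against LCM oocytes, a pseudocount of 10 gave 4 and 2, and a mean of at least 2 gave 5 higher. In granulosa cells a pseudocount of 10 gave 9 and 0, neighboring cells alone gave 2 lower, and summed counts put Lbr at −0.0802 and Nsdhl at −0.57. In mESCs a pseudocount of 0.1 gave 3 lower and summed counts 3 higher and 1 lower. The causes were not tested.

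In the pools, 0 members were called under each alternative run. Over all genes, 44 were higher and 0 lower by edgeR, 301 and 110 by DESeq2, and 55 and 1 without the filter. With the replicate number as a block 3 were higher and 0 members were called; 5 of 7 pools lay nearest their own number. Leaving out replicates gave 5 to 34 higher, with 6, 5 and 10 without replicate 4, 5 and 6, and 0 members.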
